A study of Homo sapiens with 4 samples.

Results

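The genes described here are those on which the helicase-dead DHX36 left few but deep binding clusters. A gene was a member when the deposited table listed 1 to 3 clusters and at least 500 crosslinked reads for FH-DHX36-E335A, so the members were chosen by the FH-DHX36-E335A values themselves. The table has 26490 lines. An FH-DHX36-E335A cluster was listed for 9131 of them, and 225 of these were members. All samples were PAR-CLIP libraries from HEK293 T-REx Flp-In cells, a human embryonic kidney line in which a stably integrated, tetracycline-inducible transgene expressed DHX36 with a FLAG/HA (FH) tag. The FH-DHX36 line carried isoform 2, and the FH-DHX36-E335A line carried isoform 1 with the E335A change that inactivates the helicase, so the isoform and the mutation differed together and cannot be told apart. Both lines were given 500 ng per ml tetracycline for 15 h and 4-thiouridine, and were irradiated with 365 nm light for 5 min before FLAG immunoprecipitation and RNase T1 digestion. The tagged protein was expressed in addition to the cells' own DHX36. Each line had 2 replicate libraries, but the table held 1 value per gene and line, so no spread between replicates was known and no difference between the lines could be tested.

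DHX36, also called RHAU, is a DEAH-box helicase known for binding and unwinding G-quadruplexes, which are folds that form where several runs of guanines lie close together in RNA or DNA. In PAR-CLIP, cells incorporate 4-thiouridine into RNA, ultraviolet light links it to the bound protein, and the linked base is read as a T-to-C conversion. Overlapping reads with such conversions are joined into clusters, each one a candidate site. A gene with many reads on few clusters is thus one whose recovered RNA came from few places along the transcript.

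The table gave clusters by annotation category and not by position, so the place of a cluster within its category was not known. To show what kind of sequence the deepest members carry, G-run matches were taken from their canonical GENCODE 44 transcripts on GRCh37. The categories of the reads came from GENCODE 19, so the bounds of a region can differ between the annotations. A match was at least 4 runs of at least 2 G, written GG, separated by loops of 1 to 7 bases on the transcript strand. Matches were not allowed to overlap. A loop could itself hold G, so a long unbroken run of G could count as 2 runs, as in UBE2S and LMCD1 below. One match of at most 30 bases, that with the highest share of G, is shown for named members in the category that held most of their reads. The exceptions are 2 histone H4 genes, HIST1H4H and HIST1H4A, which had most reads outside the listed regions. For these 2 a match across the stop codon is shown instead, without knowing that reads lay there. Lines are written 5′ to 3′ with the G runs in capitals.

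UBE2S, 5'UTR, chr19:55918982-55918998, minus strand: GGaaGGGGGccGGGGGG

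CKS1B, 5'UTR, chr1:154947178-154947203, plus strand: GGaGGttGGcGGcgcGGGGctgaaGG

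RABGAP1L, 5'UTR, chr1:174128728-174128747, plus strand: GGtGGaGGGtGGaacgcGGG

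RPL3, coding sequence, chr22:39713608-39713621, minus strand: GGaGGtGGtGGaGG

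LMCD1, 3'UTR, chr3:8615990-8616004, plus strand: GGGGaaGGGGGaGGG

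ZNF76, 3'UTR, chr6:35263608-35263627, plus strand: GGcagagaGGcaGGGagtGG

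HIST1H4H, across the stop codon, chr6:26285414-26285430, minus strand: GGcttcGGtGGctaaGG

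HIST1H4A, across the stop codon, chr6:26022204-26022220, plus strand: GGctttGGcGGttaaGG

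The match of UBE2S held 13 G among 17 bases, and that of LMCD1 12 G among 15. The LMCD1 match began 6706 bases from the end of the coding sequence, so it need not lie in the 3'UTR where reads were counted. Both histone H4 matches began 15 bases before the end of the coding sequence and ran through the stop codon, where H4 genes encode a glycine-rich end. The other 4 of the 6 H4 members with a transcript, among them HIST1H4C, had no match that reached within 50 bases of the end of the coding sequence. A match of at most 30 bases across the stop codon was found in 5 members, 2 of them with most reads outside the listed regions. A match describes letters only. Of all bound genes with a transcript, 97.2% held at least one such match somewhere in the mRNA, and 214 of 221 members did (96.8%, 95% Wilson interval 93.6% to 98.5%). The share of members with a match was thus near that of all bound genes.

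The 225 members carried 338273 FH-DHX36-E335A reads on 542 clusters. This was 3.87% of all FH-DHX36-E335A reads on 0.900% of the clusters. In all, 28 members had 1 cluster, 77 had 2 and 120 had 3. Reads ran from 501 in EXOSC5 to 23235 in HIST1H4C, with a median of 800. Under 1000 reads were listed for 148 members, and 9 members had 5000 or more. Reads per cluster had a median of 336 over the members, with quartiles of 250 and 651. They had a median of 123 over the 3354 genes with at least 500 reads on more than 3 clusters, and of 40 over the 3474 genes with 1 to 3 clusters and under 500 reads. These medians follow from the selection and were not tested.

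**Figure D1:**
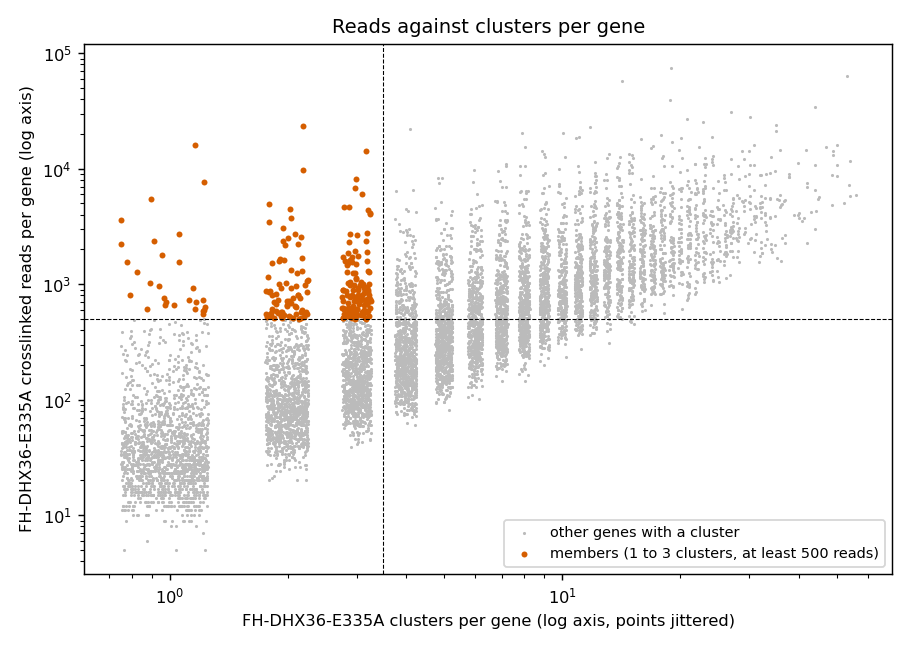
FH-DHX36-E335A crosslinked reads against the number of clusters for each gene with a cluster, both on log axes, with cluster numbers jittered. The dashed lines mark 500 reads and the step from 3 to 4 clusters; the 225 members form the upper left corner, from 501 to 23235 reads.

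Genes close to the limits differed little from each other. Just inside the limit on reads were ING4 with 504 reads, PMVK with 502 and EXOSC5 with 501. Just outside it were ZNF202 with 499 reads, FKBP1A with 498 and GPC4 with 494. On the other side of the limit on clusters, 172 genes had 4 clusters and at least 500 reads, with a median of 208 reads per cluster against 264 for the members with 3 clusters. Among the genes with 4 clusters, UQCRH, a subunit of respiratory complex III, had 22043 reads more than every member but HIST1H4C.

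For 103 members each category with clusters held exactly 1, so that the reads of single clusters could be read off. The deepest cluster of these genes held between 317 and 16016 reads, with a median of 753. In 75 of them with 2 or 3 clusters, the deepest held a median of 92.8% of the gene's reads, from 57.3% to 98.9%, and in 49 of the 75 it held over 90%. In most of these genes a single cluster thus held nearly all reads. UBE2S, a ubiquitin-conjugating enzyme of the anaphase-promoting complex pathway, had 3356 reads on 1 cluster in the 5'UTR and 115 on 1 in the coding sequence. HIST1H4H had all its 16016 reads on 1 cluster.

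A main category was the annotation category that held over 50% of a gene's reads. The table listed the 5'UTR, coding sequence (CDS), 3'UTR and introns. What a gene's total held beyond these is called other, and it can include clusters across start or stop codons and those on non-coding transcripts of the gene. The 3'UTR was the main category of 110 members (48.9%, 42.4% to 55.4%), against 49.4% of all genes with a cluster. The category other was main in 71 members (31.6%, 25.8% to 37.9%), against 12.6% of all genes with a cluster. The CDS was main in 18 members (8.0%, 5.1% to 12.3%), against 17.1%. The 5'UTR was main in 15 (6.7%, 4.1% to 10.7%), against 3.42%, and introns in 11 (4.9%, 2.8% to 8.5%), against 5.9%. As regions are part of the values that chose the members, nothing is read from these differences. Every member had a main category, which held a median of 96.9% of its reads. Summed over members, other held 46.0% of reads and the 3'UTR 35.9%. Without the 11 histone members, other held 28.9% and the 3'UTR 49.5%.

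**Figure D2:**
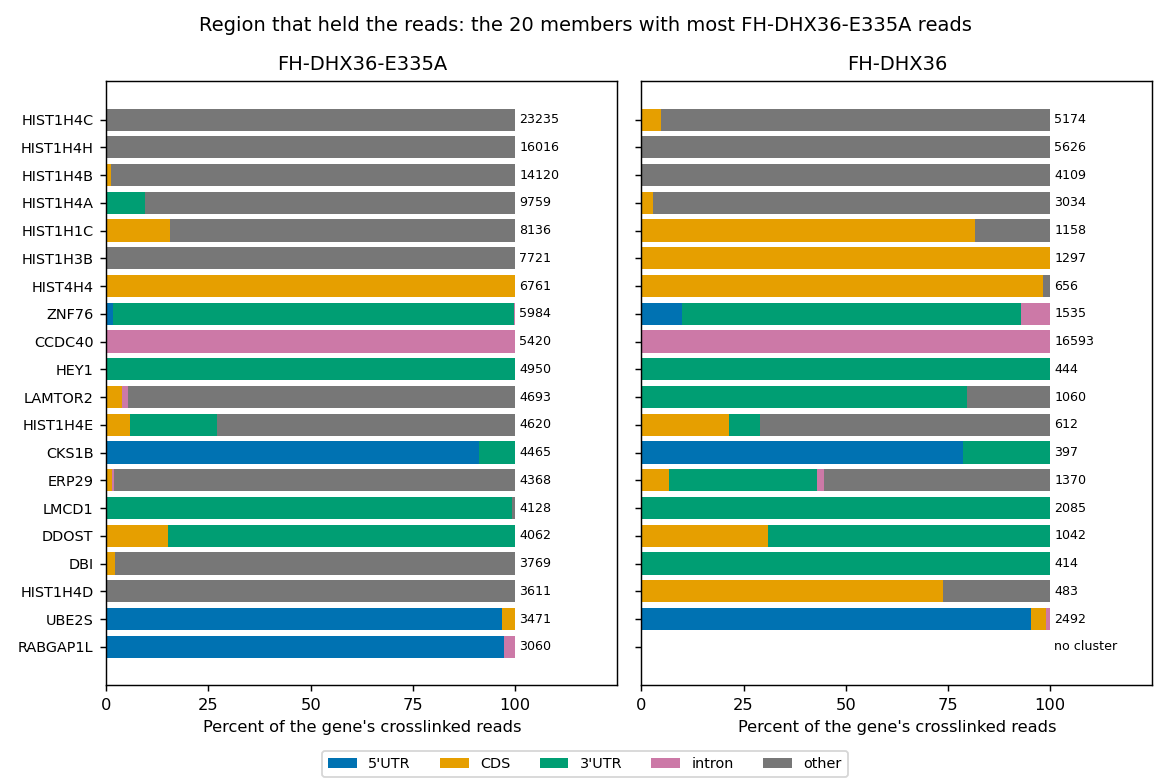
Percent of each gene's crosslinked reads in each annotation category for the 20 members with most FH-DHX36-E335A reads, in FH-DHX36-E335A (left) and FH-DHX36 (right), with the read number at the end of each bar. Most bars are of 1 colour; HIST1H1C, HIST1H3B, LAMTOR2, DBI and HIST1H4D change from other to another category, and RABGAP1L has no FH-DHX36 cluster.

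Replication-dependent histone genes were the deepest members. HIST1H4C, one of several genes for histone H4, had 23235 FH-DHX36-E335A reads on 2 clusters and 5174 FH-DHX36 reads on 3. HIST1H4H had 16016 reads on 1 cluster in FH-DHX36-E335A and 5626 on 2 in FH-DHX36. HIST1H4B had 14120 reads on 3 clusters and 4109 on 2, respectively. In these 3 genes nearly all reads of both PAR-CLIPs lay in other. HIST1H4A followed with 9759 and 3034 reads. HIST4H4, on another chromosome, had 6746 of its 6761 reads in the CDS, and FH-DHX36 had 645 of 656 there. HIST1H1C, a linker histone, had 6876 of 8136 reads in other in FH-DHX36-E335A, whereas FH-DHX36 had 945 of 1158 in the CDS. HIST1H3B, a histone H3 gene, had all 7721 reads in other and all 1297 FH-DHX36 reads in the CDS. The H4 genes are copies: the coding sequences of the 6 H4 members with a transcript shared 79.8% to 89.1% of their 312 bases in pairs. This identity covers the coding sequence, whereas nearly all reads of HIST1H4C, HIST1H4H and HIST1H4B lay in other. Short reads could be assigned to the wrong copy, which was not tested, so reads of single H4 genes are uncertain.

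CKS1B and UBE2S had most reads among the members with mostly 5'UTR reads. CKS1B, a subunit of cyclin-dependent kinase complexes, had 4073 of its 4465 reads in the 5'UTR, and FH-DHX36 had 312 of 397. UBE2S had 3356 of 3471 reads in the 5'UTR, and FH-DHX36 had 2373 of 2492. Both cell lines thus had most reads in the 5'UTR of these mRNAs. It is 65 bases long in CKS1B and 199 in UBE2S, against a median of 143 over all bound genes with a transcript. RABGAP1L, a GTPase-activating protein, had 2973 of 3060 reads in the 5'UTR and no FH-DHX36 cluster. DDHD1, a phospholipase, had 1662 of 1715 reads there and 910 FH-DHX36 reads on 1 cluster. It was named here after its values were seen. Of 12 members with the 5'UTR as the main category and an FH-DHX36 cluster, 11 had the 5'UTR as the main category in FH-DHX36 too.

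Among the members with mostly CDS reads, RPL3, a protein of the large ribosomal subunit, had 1489 of 1530 reads in the CDS, and FH-DHX36 had 254 of 284. RNF19A, a ubiquitin ligase, had all 1292 reads on 3 CDS clusters and 91 FH-DHX36 reads on 1. The mitochondrially encoded MT-CO2, a subunit of cytochrome c oxidase listed by its gene identifier only, had 510 reads on 3 CDS clusters in FH-DHX36-E335A but 3096 on 6 in FH-DHX36. It was the only member whose RNA is made inside mitochondria.

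The 3'UTR members were the largest class. ZNF76, a zinc finger protein, had 5869 of its 5984 reads in the 3'UTR, and FH-DHX36 had 1273 of 1535. HEY1, a transcriptional repressor downstream of Notch, had 4950 reads on 2 clusters of the 3'UTR, and FH-DHX36 had 444 on 1. LMCD1, a LIM domain protein, had 4100 of 4128 reads there, and all of its 2085 FH-DHX36 reads. In these 3 genes both PAR-CLIPs held the 3'UTR as the main category. The 3'UTR of the canonical GENCODE 44 transcript was 7070 bases long in LMCD1 and 737 in ZNF76. It can differ from the 3'UTR of GENCODE 19 in which the reads were counted. Over the 110 members with the 3'UTR as the main category, 3'UTR length had a median of 929 bases. The median was 1533 over all bound genes with a transcript. The latter include genes of every main category, so the sets are not alike and nothing is read from the difference.

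Reads in introns stood out in single genes. CCDC40, which is needed for the assembly of ciliary dynein arms and lies on chr17:78010431-78074412 of GRCh37, had 5420 FH-DHX36-E335A reads on 1 intronic cluster and 16593 FH-DHX36 reads on 1 intronic cluster. It held more FH-DHX36 reads than any other member, although its RNA abundance was 0.743 on the authors' scale. CMTM1, a chemokine-like factor, had 1532 intronic reads on 3 clusters, and 424 on 1 in FH-DHX36. FCGR2B, an Fc receptor of B cells, had 1301 intronic reads on 2 clusters and 1848 on 1, while its RNA abundance was 0. All 9 members with mostly intronic reads and an FH-DHX36 cluster had introns as the main category in FH-DHX36 too. The table does not place these clusters within the introns.

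FH-DHX36 had a cluster on 191 of the 225 members (84.9%, 79.6% to 89.0%), against 62.1% of all genes with an FH-DHX36-E335A cluster. The share was 90.5% of genes with at least 500 reads on more than 3 clusters and 36.2% of genes with 1 to 3 clusters and fewer reads. The FH-DHX36 data held 2160413 reads against 8752127 for FH-DHX36-E335A, so a missing cluster can be one not detectable at this depth. To compare concentration, the limit of 500 reads was scaled by the ratio of the totals to 123 FH-DHX36 reads. Few but deep clusters in this sense, 1 to 3 clusters with at least that many reads, were found on 106 of the 191 members (55.5%, 48.4% to 62.4%). They were found on 26.5% of all genes with an FH-DHX36 cluster, on 31.0% of the genes with many FH-DHX36-E335A clusters and on 19.9% of those with few clusters and few reads. Thus the share of members was the highest of these classes, and the interval lay above the values of the others. The classes were split by FH-DHX36-E335A reads and clusters, and reads of both PAR-CLIPs went together across genes. This order thus describes the selection as well.

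The number of clusters grows with reads, so the comparison was also made among genes past the scaled limit. Of the 124 such members, 106 had 1 to 3 FH-DHX36 clusters (85.5%, 78.2% to 90.6%), against 53.7% of all genes past the limit and 43.9% (41.8% to 46.0%) of those with many FH-DHX36-E335A clusters. Genes with few and shallow FH-DHX36-E335A clusters reached 85.7% (81.2% to 89.2%), which could not be told from the members. Reads per FH-DHX36 cluster among genes past the limit had a median of 175 (95% interval of the median 144 to 204) in members, 103 (98.3 to 107) in genes with many clusters and 119 (102 to 133) in genes with few and shallow ones. The median of the members lay above both, and its interval did not overlap theirs. As the classes were split by FH-DHX36-E335A reads and clusters, this order describes the selection as well. Intervals of shares and medians cover the counting of genes only. More reads per cluster in FH-DHX36 than in FH-DHX36-E335A were found in 20 of 191 members (10.5%, 6.9% to 15.6%), against 31.1% of all genes with clusters in both. The members were selected on many FH-DHX36-E335A reads per cluster, so nothing is read from this difference. The FH-DHX36 data had 4.05 times fewer reads.

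**Figure D3:**
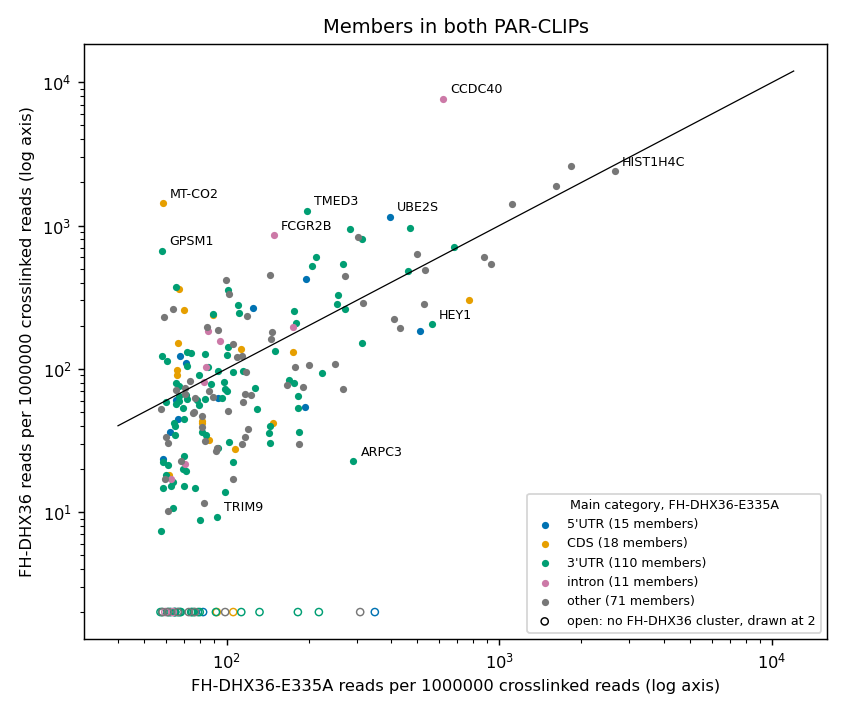
Reads per 1000000 crosslinked reads of each member in FH-DHX36-E335A (x axis) and FH-DHX36 (y axis), both on log axes, coloured by the main category in FH-DHX36-E335A; the line marks equal values. Open circles at the bottom are the 34 members with no FH-DHX36 cluster, and CCDC40 and MT-CO2 stand far above the line.

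Reads per 1000000 crosslinked reads in both PAR-CLIPs were compared for the 191 members with clusters in both. FH-DHX36 was higher in 73 of them (38.2%, 31.6% to 45.3%), against 46.6% of all genes with clusters in both. The median ratio of FH-DHX36 to FH-DHX36-E335A was 0.773, against 0.637 in genes with many clusters and 2.37 in genes with few clusters and under 500 reads. As the members had to be deep in FH-DHX36-E335A, and the classes were defined by the same reads that form the ratio, the medians describe the selection as well as the protein. Across the 191 members Spearman's rho of the read numbers in both PAR-CLIPs was 0.54 (Pearson's r of log10 reads 0.65). Across all 5669 genes with clusters in both, rho was 0.63. Without the histone genes, rho was 0.48 (r 0.56) across 180 members. Spearman's rho of reads per cluster was 0.49 across the 191 members and 0.50 across the 5669 genes. These values were computed across genes, which share the libraries and the abundance of their RNA and are no replicates.

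The ratio was the highest in MT-CO2, where 510 reads in FH-DHX36-E335A faced 3096 in FH-DHX36, a ratio of 24.6. It was 12.4 in CCDC40 and 11.5 in GPSM1, a modulator of G-protein signalling with 506 and 1440 reads. It was 6.48 in TMED3, a cargo receptor of the early secretory pathway with 1721 and 2752 reads, and 5.75 in FCGR2B. The clusters of GPSM1 and TMED3 all lay in the 3'UTR in both PAR-CLIPs. The median ratio of the mitochondrially encoded genes with clusters in both PAR-CLIPs was 25.9. The lowest ratio was that of ARPC3, a subunit of the Arp2/3 complex, with 2555 reads in FH-DHX36-E335A and 49 in FH-DHX36, a ratio of 0.0777. TRIM9, a ubiquitin ligase of neurons, had 806 reads on 3 clusters of the 3'UTR and 20 on 1 intronic cluster. KIAA1549 had 701 and 19 reads, ING4, a chromatin reader, 504 and 16, and SNRPD2, a core protein of spliceosomal snRNPs, 721 and 25. In these 5 genes FH-DHX36 had 1 cluster each, of 16 to 49 reads.

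No FH-DHX36 cluster was listed for 34 members. RABGAP1L had most FH-DHX36-E335A reads among them with 3060, followed by RPL17-C18orf32 with 2704, ZNF511 with 1908, LRP5 with 1598 and HSCB with 1156. RPL17-C18orf32 is a read-through of 2 genes, so its reads cannot be told apart from those of RPL17. LRP5 is a co-receptor of Wnt signalling, and HSCB is a co-chaperone of iron-sulfur cluster assembly. The 3'UTR held most reads of ZNF511, LRP5 and HSCB. At the ratio of the totals, the 500 reads of the limit correspond to 123 FH-DHX36 reads. The lowest FH-DHX36 count on any member with a cluster was 16, which is not a limit of detection. The part of depth in the missing clusters was not tested.

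Of the 191 members with clusters in both PAR-CLIPs, 130 had the same main category (68.1%, 61.2% to 74.3%), against 53.5% of all genes with clusters in both. The share was 54.7% for genes with many FH-DHX36-E335A clusters and 56.9% for genes with few clusters and under 500 reads. Genes without a main category counted as not the same. Every member had one in FH-DHX36-E335A, whereas 11.6% of all genes with a cluster had none. The shares are thus not on equal terms, and nothing is read from their difference. The category was kept by 75 of 90 members with mostly 3'UTR reads, by 13 of 16 with mostly CDS reads, and by 11 of 12 and 9 of 9 with mostly 5'UTR and intronic reads. It was kept by only 22 of 64 members with mostly other (34.4%, 23.9% to 46.6%). Non-members with mostly other kept it in 39.2% (35.7% to 42.9%), so this low share was not particular to the members. Of the 64 members, 22 had the 3'UTR as the main category in FH-DHX36 and 12 had the CDS.

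**Figure D4:**
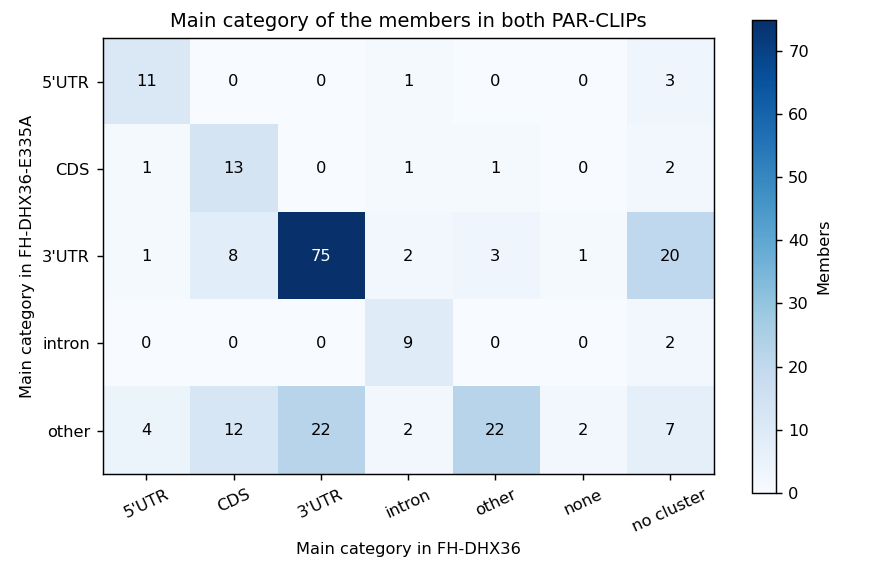
Number of members for each pair of main categories, FH-DHX36-E335A in rows and FH-DHX36 in columns, with the colour scale in members. The diagonal holds most members of the 3'UTR, CDS, 5'UTR and intron rows, while the row of other splits between other (22), the 3'UTR (22) and the CDS (12).

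LAMTOR2, a subunit of the Ragulator complex that anchors mTORC1 at lysosomes, was the deepest gene that went from other to the 3'UTR. It had 4448 of its 4693 FH-DHX36-E335A reads in other and 845 of 1060 FH-DHX36 reads in the 3'UTR. DBI, an acyl-CoA-binding protein, had 3691 of 3769 reads in other and all 414 FH-DHX36 reads in the 3'UTR. Of 14 members with 1 cluster in each PAR-CLIP, 6 had it in another category in FH-DHX36, 5 of them in the 3'UTR and C7orf55 in the 5'UTR, each time from other. BLVRB, biliverdin reductase B, had 1562 and 221 reads, KRT19, an intermediate filament keratin, 1279 and 349, and S100A13, a calcium-binding protein, 1025 and 144. METRN had 753 and 152 reads and HES7, a transcriptional repressor, 596 and 49. The genes of this paragraph were named after their values were seen. Whether both PAR-CLIPs covered the same bases of these genes cannot be seen in a table without positions.

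The category other can include clusters across a stop codon, but the table does not show whether it did in these genes. G-run matches near the stop codon were counted, in a window chosen after the data were seen. Of 68 members with mostly other and a transcript, 29 had a match that reached within 50 bases of the end of the coding sequence (42.6%, 31.6% to 54.5%). The share was 29.1% (21.4% to 38.2%) for the 110 members with mostly 3'UTR reads, 29.4% for all members, 30.02% (27.3% to 32.8%) for non-members with mostly other and 23.4% for all bound genes with a transcript. The interval of the members with mostly other lay above the value of all bound genes and overlapped that of the non-members with mostly other. Their mRNAs were also richer in G, at a median of 28.9% against 24.0% of bases in all bound genes, and had 4.48 against 1.98 matches per kb. The part of the G content in the count was not tested.

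The listed protein families differed in their share of members. Of 46 histone genes with an FH-DHX36-E335A cluster, 11 were members (23.9%, 13.9% to 37.9%), and of 70 genes for cytosolic ribosomal proteins 16 were (22.9%, 14.6% to 34.0%), where 2.46% of all bound genes were members. At least 500 reads were listed for 26 of these histone genes and 50 of these ribosomal protein genes, against 3579 of 9131 bound genes. Of bound genes with at least 500 reads, 6.29% were members. Membership is the rule itself, so these shares describe the selection. All 11 histone members had an FH-DHX36 cluster, and 8 had few but deep ones. The 16 ribosomal protein members also all had an FH-DHX36 cluster, and 7 had few but deep ones. The median RNA abundance was 6675 over the histone members and 6805 over the ribosomal protein members, against 15.8 over all members, and its part in these counts was not tested. Genes for ribosomal proteins have many processed pseudogenes, so their reads are uncertain as well. RPL3, RPL35 and RPL27 had most reads among these, with 1530, 1455 and 993 in FH-DHX36-E335A and 284, 167 and 64 in FH-DHX36. Subunits of the respiratory chain and ATP synthase were members in 6 of 79 cases (7.59%, 3.53% to 15.6%), among them ATP5H with 2772 reads, NDUFA2 with 2347 and ATP5E with 1793. For ATP5E all 1793 reads lay on 1 cluster, and FH-DHX36 had 1120 on 2. The remaining lists were close to the background of 2.46% or had 1 or 2 members. Mitochondrial ribosomal proteins had 2 members of 71, namely MRPL38 with 2223 reads and MRPL33 with 865. The proteasome had 2 of 41, PSMD13 with 2331 and PSMB7 with 1074. Translation factors had 1 of 53, EEF1B2 with 541 reads, Sm and LSm proteins 1 of 21 and solute carriers 1 of 139, SLC50A1 with 616. Zinc finger genes had 7 of 328, with ZNF76, ZNF593 and ZNF511 in the lead. In total 177 members were in none of these lists.

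RNA abundance and length were not part of the rule. The median RNA abundance, recovered from the deposited NXPM, was 15.8 (95% interval of the median 9.54 to 25.7) over 222 members, 9.14 over genes with many clusters and 3.73 over genes with few clusters and fewer reads. Members were spread widely, with quartiles of 2.90 and 134. The median of members with mostly CDS reads was 85.0 and that of members with mostly other was 73.2, whereas it was 6.83 for the 3'UTR and 4.43 for the 5'UTR members. Reads per cluster thus came from abundant and rare RNAs. NXPM, crosslinked reads scaled to the total and divided by abundance, was accordingly lowest in 3 ribosomal proteins, at 0.00343 in RPLP1, 0.00428 in RPL37A and 0.00755 in RPS28. It was highest in FCGR2B, TXNRD3NB and MT-CO2, for which an abundance of 0 was recovered, so that the constant of 0.001 in the denominator set the value and no level can be read from it.

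The canonical mRNA of members had a median of 2002 bases (1636 to 2336), against 3791 (3699 to 3909) for genes with at least 500 reads on more than 3 clusters and 3247 (3165 to 3365) for genes with 1 to 3 clusters and under 500 reads. The interval of the members lay below those of both classes, so that their median mRNA was shorter. This did not hold for each main category. The 110 members with mostly 3'UTR reads had a median of 2700 bases (2189 to 3412). The 15 with mostly 5'UTR reads had 2551 (877 to 4192). Both intervals overlapped that of genes with 1 to 3 clusters and under 500 reads. The interval of the 3'UTR members lay below that of genes with more than 3 clusters, whereas that of the 5'UTR members overlapped it. Members with mostly other were the shortest, with 1203 bases (731 to 1541), and had 3'UTRs of 229 bases (126 to 368). Median 3'UTR length was 634 bases (475 to 834) in members and 1876 (1787 to 1975) in genes with many clusters. Length thus moved with the class, and its part in the number of clusters was not tested. Without the histone genes, the median length of the members was 2147 bases.

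**Figure D5:**
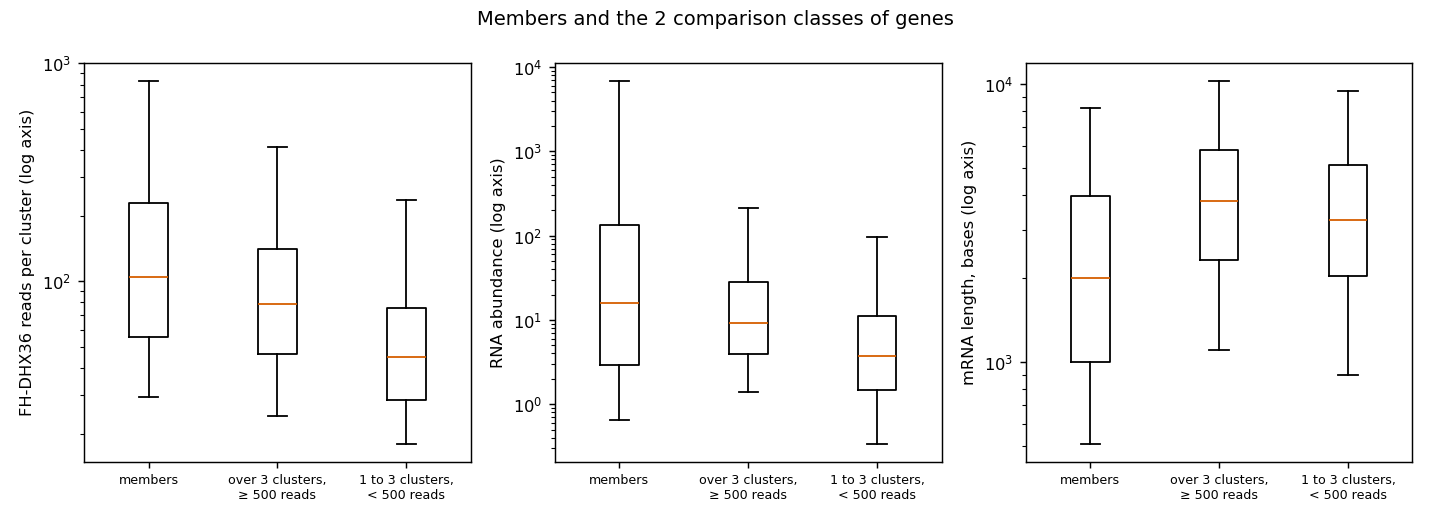
FH-DHX36 reads per cluster, recovered RNA abundance and canonical mRNA length (log axes) for members and both comparison classes. Boxes span the quartiles, orange lines are medians and whiskers reach the 5th and 95th percentiles; members had the highest median reads per cluster and abundance and the lowest median length.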

How the data were processed

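PAR-CLIP was performed by the authors with 2 replicates per cell line. Alignment was to hg19, and PARpipe ran PARalyzer to form clusters, with categories from GENCODE 19. No source used here gives their versions. The deposited read counts and cluster counts are raw, with 1 value per gene and cell line. NXPM, deposited as a score, is the reads scaled to the total, over RNA abundance plus 0.001, from which abundance was recovered. The members and lists were chosen with earlier results of these data known. Named genes were those with most reads in all, per category and per list, the extremes of the FH-DHX36 ratio and of NXPM, and the neighbours of the limits. Of 225 members, 222 matched a gene and 221 a canonical protein-coding transcript of GENCODE 44 on GRCh37, which is the sequence of hg19. Gene lists were taken by symbol. The table lists bound RNA, so the cell type was not checked by markers. Shares have 95% Wilson intervals, which cover counting error only, since reads without molecular identifiers are not independent. No test was run, as there were no replicate values. Calculations used Python 3 with pandas and scipy and were tested on simulated data.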

Additional observations from a re-analysis of the deposited data

How the results depend on the processing

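No paired analysis was possible because the table has 1 column per cell line, and for the same reason no replicate could be left out. Of 50 alternative values, 31 stayed within the 95% interval of the reported value (counts within 1.5-fold) and 19 moved; the causes were not tested unless the alternative itself fixes them. The number of members depended on the limits: 571 with 250 reads, 77 with 1000, 105 with at most 2 clusters and 397 with at most 4. Summing reads gave 35.9% to the 3'UTR and 46.0% to other. Median reads per cluster were 195 and 835 with limits of 250 and 1000 reads. The share with an FH-DHX36 cluster was then 76.2% and 93.5%, and 73.8% had at least 50 FH-DHX36 reads. Few but deep FH-DHX36 clusters were found on 18.8% of members at an unscaled limit of 500 reads, on 41.4% with at most 2 clusters and on 64.9% with no limit on clusters. The same main category held in 56.02% when it had to hold over 75% of reads, and in 85.0% without members with mostly other. A match made of runs of at least 3 G was found in 24.4% of members, against 26.0% of all bound genes with a transcript. With loops of 1 to 3 bases a match was found in 80.1% of members, and this share was not taken over all bound genes. A window of 100 bases at the stop codon gave 44.8%. This window, the one of 50 bases and the exclusion of other were chosen after seeing the data. The shares of genes and medians over genes recomputed without histone genes stayed within their intervals, whereas the shares of summed reads changed without them, to 28.9% for other and 49.5% for the 3'UTR.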
